A study of Mus musculus with 6 samples.

Results

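Type I interferon signalling was followed through 40 genes: the cytokine interferon-β, both chains of its receptor, and 37 genes that cells switch on when the receptor is engaged. The genes were picked by name from general knowledge of the pathway, with earlier results of these data known. Shares of members against all genes are therefore not those of a list chosen blind. Each was read from the array feature that carries its symbol alone, and the brighter feature was taken where there was more than 1. All 40 were measured, none was missing, and they stood among 30176 named genes on the array.

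The samples were primary cultures of microglia, the resident macrophages of the brain, grown from newborn (P0) CD1 mice. CD1 is an outbred strain, so pups of different cultures were not genetically identical. Each culture pooled 5 pups, and the labels number the cultures 3, 4 and 6. The hypoxia group (3 arrays) spent 6 h at 1% oxygen, and the normoxia group (3 arrays) spent 6 h at 21% oxygen. Each culture gave 1 array to each group. No gene was altered and no interferon or other agent is named in the labels, so the levels at 21% oxygen are those without a named stimulus. Values are deposited log2 intensities of total RNA, so a difference of 1 is a doubling, and levels of different genes cannot be set against each other because their probes differ.

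Interferon-β is secreted by cells that sense foreign or misplaced nucleic acid. It binds the IFNAR1 and IFNAR2 chains, whose kinases activate a complex that holds STAT2 and IRF9. The complex enters the nucleus and binds the interferon-stimulated response element in the promoters of antiviral genes. In microglia a low, tonic level of this signalling is present without infection, and many of the induced genes code for sensors and transcription factors that keep the pathway responsive.

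The oxygen labels and the cell type were checked first. Of 9 hypoxia response genes measured, 6 were higher in hypoxia (limma, adjusted p under 0.05) and 9 with the culture as a block, with a median log2 change of 1.76. The mean log2 intensity of 16 measured microglia markers was 10.33, 10.32 and 10.27 in hypoxia cultures 3, 4 and 6, and 10.35, 10.36 and 10.41 in normoxia cultures 3, 4 and 6. None of these markers changed between the conditions, and 1 of 16, P2ry13, differed between cultures. All 10 fibroblast and pericyte markers were measured, and 9 of them differed between cultures. Their log2 summed intensity was 13.17, 12.31 and 11.81 in hypoxia cultures 3, 4 and 6, against 12.74, 11.72 and 11.37 in normoxia cultures 3, 4 and 6. This signal was highest in culture 3 in both conditions. As these are bulk RNA samples, fewer cells of a type and less RNA per cell cannot be told apart.

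The interferon program was spread out more between cultures than between oxygen levels. At 1% oxygen the 3 cultures spanned a median of 0.42 log2 units per member (highest minus lowest array), against 0.22 over all 30176 genes. At 21% oxygen the median range was 0.38 for members and 0.16 for all genes. The mean change between hypoxia and normoxia had a median size of 0.12 for members and 0.09 for all genes. In 37 of 40 members (92.5%) the normoxia range was larger than the mean change, and the same held for 73% of all genes. The exceptions were Ifnar2, Trim30a and Ifi27l2a.

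**Figure D1:**
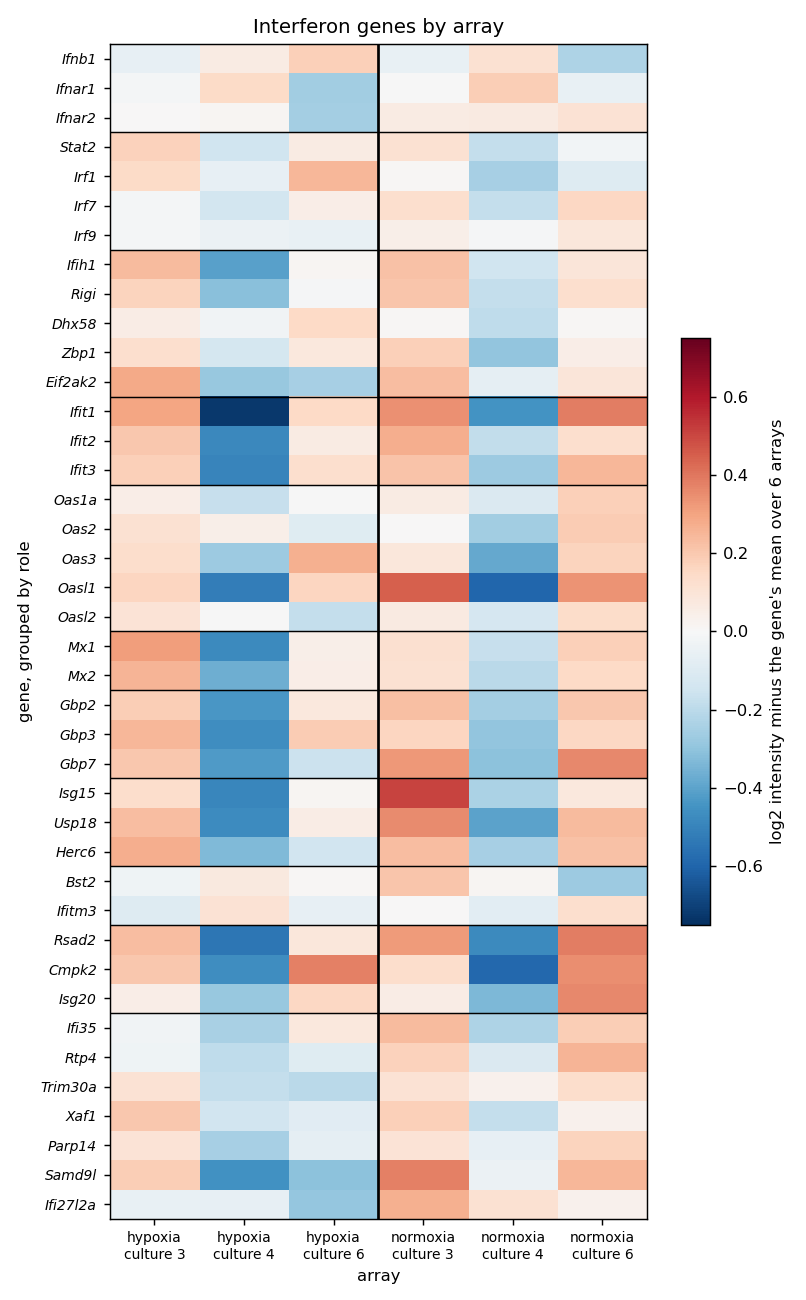
Heat map of the 40 genes in role order (rows) on the 3 hypoxia arrays and the 3 normoxia arrays (columns), coloured by log2 intensity minus the mean of that gene over the 6 arrays. The culture 4 columns are blue for most induced genes in both conditions, and 30 of 40 genes had their lowest value in culture 4 under both conditions.

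The receptor chains did not share the low values of culture 4. None of the 3 genes of ligand and receptor passed a test between cultures or conditions. Ifnb1, the interferon-β gene, had 5.38, 5.50 and 5.62 in hypoxia cultures 3, 4 and 6, against 5.38, 5.55 and 5.21 in normoxia cultures 3, 4 and 6. The groups overlapped, and only culture 6 moved by more than 0.1, with a difference of 0.41 between its 2 arrays. All Ifnb1 values lay below the array medians of 5.84 to 5.92. Signal over background was not assessed, so Ifnb1 cannot show whether the ligand follows the cultures. Ifnar1 had 10.73, 10.89 and 10.48 in hypoxia, against 10.74, 10.93 and 10.69 in normoxia, with culture 4 highest in both conditions. Ifnar2 had the smallest normoxia range of all 40 members, 0.05, with 10.73, 10.74 and 10.47 in hypoxia cultures 3, 4 and 6, against 10.79, 10.79 and 10.83 in normoxia cultures 3, 4 and 6. Its hypoxia arrays all lay below the normoxia arrays, but the mean change of -0.16 ± 0.09 (SE) did not pass the test (limma, adjusted p = 0.573, or 0.392 with the culture as a block).

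Among the transcription factors, Stat2 followed the cultures. It codes for a subunit of the receptor-activated complex, and had 11.92, 11.60 and 11.81 in hypoxia cultures 3, 4 and 6, against 11.86, 11.56 and 11.73 in normoxia cultures 3, 4 and 6. Culture 4 was lowest in both conditions, although Stat2 did not pass the test between cultures (adjusted p = 0.24). Irf9, the DNA-binding subunit of that complex, had the narrowest hypoxia range of the 40, with 9.23, 9.20 and 9.19 in hypoxia and 9.29, 9.24 and 9.33 in normoxia. Irf7, which amplifies interferon production, had 12.09, 11.97 and 12.15 in hypoxia and 12.23, 11.93 and 12.26 in normoxia. Irf1 is described with the oxygen comparison below.

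By a test over all cultures, the clearest differences lay in 6 of the induced genes. A moderated F test of culture, with the oxygen condition in the model, was passed by 6 of 40 members (limma, adjusted p under 0.05), against 1.13% of all genes and 1.73% of the genes above the median mean level. These were Ifit1, Ifit3, Oasl1, Usp18, Rsad2 and Cmpk2. At an unadjusted p under 0.05 there were 26 of 40 members, against 14.5% of all genes. In pairwise differences, 10 members were lower in culture 4 than in culture 3 and 0 were higher, against 1.07% and 0.278% of all genes. The other 4 of these 10 were Ifit2, Gbp2, Gbp3 and Isg15. Ifit1 and Cmpk2 were higher in culture 6 than in culture 4, as were 0.0928% of all genes, and 0 members were lower, against 0.0828%. No member differed between cultures 6 and 3, where 0.0464% of all genes were higher in culture 6 and 0.646% lower. The calls of the F test were lost without either array of culture 3, and more members passed without either array of culture 6. Among all genes the calls moved the same way. Each of these fits left 1 array in a culture, so the rise was not read as a gain among members. Without both culture 4 arrays, a choice made after seeing the data, 0 of 40 members passed while 457 other genes did.

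The letters of the response element were found just upstream of the start of several members. The element was searched as GAAA, any 2 bases and GAAA again, which on the other strand reads TTTC, any 2 bases and TTTC, in the 250 bases before and 50 bases after each RefSeq transcription start (GRCm38.p6). Windows existed for 31 of 40 members, and 16 of these 31 genes (51.6%) held at least 1 match, against 3.99% of 27025 genes. Mx1, Mx2, Oas2, Usp18, Dhx58, Rtp4, Zbp1, Parp14 and Ifi27l2a had no window. The stretches below show the same short element in 3 genes that passed the F test between cultures (Ifit1, Ifit3, Rsad2). They also show it in 3 that passed only the pairwise test of culture 4 against culture 3 (Isg15, Gbp2, Gbp3). Bst2 is printed as a gene that passed neither test. Stat2, Ifih1, Rigi, Eif2ak2, Oas1a, Oas3, Gbp7, Ifitm3 and Trim30a also held a match and passed neither. Whether the element goes with the difference between cultures was not tested. Capitals mark the matches, and overlapping matches run together.
Ifit1: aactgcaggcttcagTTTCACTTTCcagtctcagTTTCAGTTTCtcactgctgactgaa
Ifit3: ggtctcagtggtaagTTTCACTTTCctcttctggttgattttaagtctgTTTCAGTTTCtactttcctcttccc
Rsad2: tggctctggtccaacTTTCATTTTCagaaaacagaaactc
Isg15: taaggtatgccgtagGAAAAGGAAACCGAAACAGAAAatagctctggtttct
Gbp2: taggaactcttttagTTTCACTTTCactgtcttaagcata
Gbp3: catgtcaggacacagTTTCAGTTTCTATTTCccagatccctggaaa
Bst2: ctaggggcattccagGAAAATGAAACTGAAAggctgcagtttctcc
They lie on the forward strand at chr19:34640770-34640828 (Ifit1), chr19:34583358-34583431 (Ifit3), chr3:142620589-142620628 (Gbp2) and chr3:142559984-142560029 (Gbp3). Those of Rsad2, Isg15 and Bst2 lie on the reverse strand at chr12:26456548-26456587, chr4:156200860-156200911 and chr8:71537572-71537617. Each lies upstream of the transcription start on which its window was built. For Ifit3 and Gbp3 that start is not the outermost one of the gene, so all of the Ifit3 stretch and the end of the Gbp3 stretch fall within the annotated gene. The windows of Oasl1 and Cmpk2, which also differed between cultures, held no match. Neither did those of Ifit2, which passed only the pairwise test of culture 4 against culture 3. A match is a run of letters and was not tested as a binding site.

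The IFIT genes lie together on chromosome 19 and code for proteins that bind viral RNA. Ifit1 (chr19:34640889-34650009), whose printed stretch holds the element in 2 copies, had 11.67, 10.66 and 11.53 in hypoxia cultures 3, 4 and 6, against 11.72, 10.93 and 11.76 in normoxia cultures 3, 4 and 6. Culture 4 was the lowest in either condition, and the hypoxia and normoxia values overlapped. Over both conditions culture 4 was lower than culture 3 by a log2 difference of -0.90 ± 0.09 (SE, adjusted p = 0.00875), a 1.87-fold higher level in culture 3, and culture 6 was higher than culture 4 by 0.85 (adjusted p = 0.0415). Culture took up 93.9% of the variance of Ifit1 over the 6 arrays, against a median of 45.1% over all genes. A high share goes with having passed the F test, which used the same values.

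Ifit3 (chr19:34583119-34588982) repeated the pattern with 11.08, 10.41 and 11.03 in hypoxia cultures 3, 4 and 6, against 11.12, 10.63 and 11.15 in normoxia cultures 3, 4 and 6. Its difference of culture 4 minus culture 3 was -0.58 ± 0.08 (SE, adjusted p = 0.0339). Ifit2 had 9.83, 9.14 and 9.69 in hypoxia, against 9.90, 9.44 and 9.75 in normoxia, and was lower in culture 4 than in culture 3 by -0.57 (adjusted p = 0.0473) without passing the F test over all cultures (adjusted p = 0.0875).

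The OAS family codes for enzymes that make a short adenylate messenger on double-stranded RNA, which activates the nuclease RNase L, and for the OAS-like proteins. Oasl1 (chr5:114923143-114937911), which in mice restrains translation of Irf7, had the widest normoxia range of all 40 members. It had 9.47, 8.80 and 9.47 in hypoxia cultures 3, 4 and 6, against 9.76, 8.72 and 9.65 in normoxia cultures 3, 4 and 6. The normoxia range was 1.04, while the mean change at low oxygen was -0.13 ± 0.29 (SE). The difference of culture 4 minus culture 3 was -0.86 ± 0.11 (SE, adjusted p = 0.0194), or a 1.82-fold higher level in culture 3. Oas3 had 10.14, 9.73 and 10.27 in hypoxia and 10.09, 9.62 and 10.17 in normoxia, close to the threshold of the F test (adjusted p = 0.0543). Oas1a, Oas2 and Oasl2 were lowest in culture 4 at 21% oxygen with normoxia ranges from 0.27 to 0.45, and of these only Oas1a was also lowest there at 1% oxygen.

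Rsad2 and Cmpk2 are neighbours on chromosome 12, with 12.7 kb between them, and their products act on nucleotides: viperin (Rsad2) makes a chain-terminating nucleotide, and Cmpk2 is a mitochondrial nucleotide kinase. Rsad2 (chr12:26442743-26456452) had 11.32, 10.55 and 11.17 in hypoxia cultures 3, 4 and 6, against 11.41, 10.61 and 11.47 in normoxia cultures 3, 4 and 6. Cmpk2 (chr12:26469117-26479837) had 10.77, 10.10 and 10.95 in hypoxia, against 10.70, 9.98 and 10.92 in normoxia. For both genes the 2 arrays of culture 4 lay below the other 4. Culture 4 minus culture 3 was -0.78 ± 0.09 for Rsad2 (SE, adjusted p = 0.0159) and -0.70 ± 0.08 for Cmpk2 (SE, adjusted p = 0.0138). Of the variance of Cmpk2, which passed the F test on the same values, culture took up 98.8% and oxygen 0.97%. The medians over all genes were 45.1% and 19.9%. Isg20, an exonuclease gene, had the same order of cultures in hypoxia (8.55, 8.21 and 8.65) and normoxia (8.56, 8.16 and 8.86) without passing the F test (adjusted p = 0.0939).

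The ISG15 system tags proteins with a ubiquitin-like modifier. Isg15 (chr4:156199424-156200818), the modifier itself, had 8.54, 7.92 and 8.42 in hypoxia cultures 3, 4 and 6, against 8.92, 8.17 and 8.49 in normoxia cultures 3, 4 and 6. Usp18 (chr6:121245906-121270917), which removes the tag and also restrains signalling at IFNAR2, had 11.68, 10.97 and 11.50 in hypoxia, against 11.80, 11.05 and 11.69 in normoxia. Both were lowest in culture 4 in each condition. Culture 4 minus culture 3 was -0.73 ± 0.08 for Usp18 (SE, adjusted p = 0.0122) and -0.68 for Isg15 (adjusted p = 0.0336). Herc6, the mouse ligase of the system, had 10.72, 10.12 and 10.30 in hypoxia and 10.68, 10.20 and 10.67 in normoxia.

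**Figure D2:**
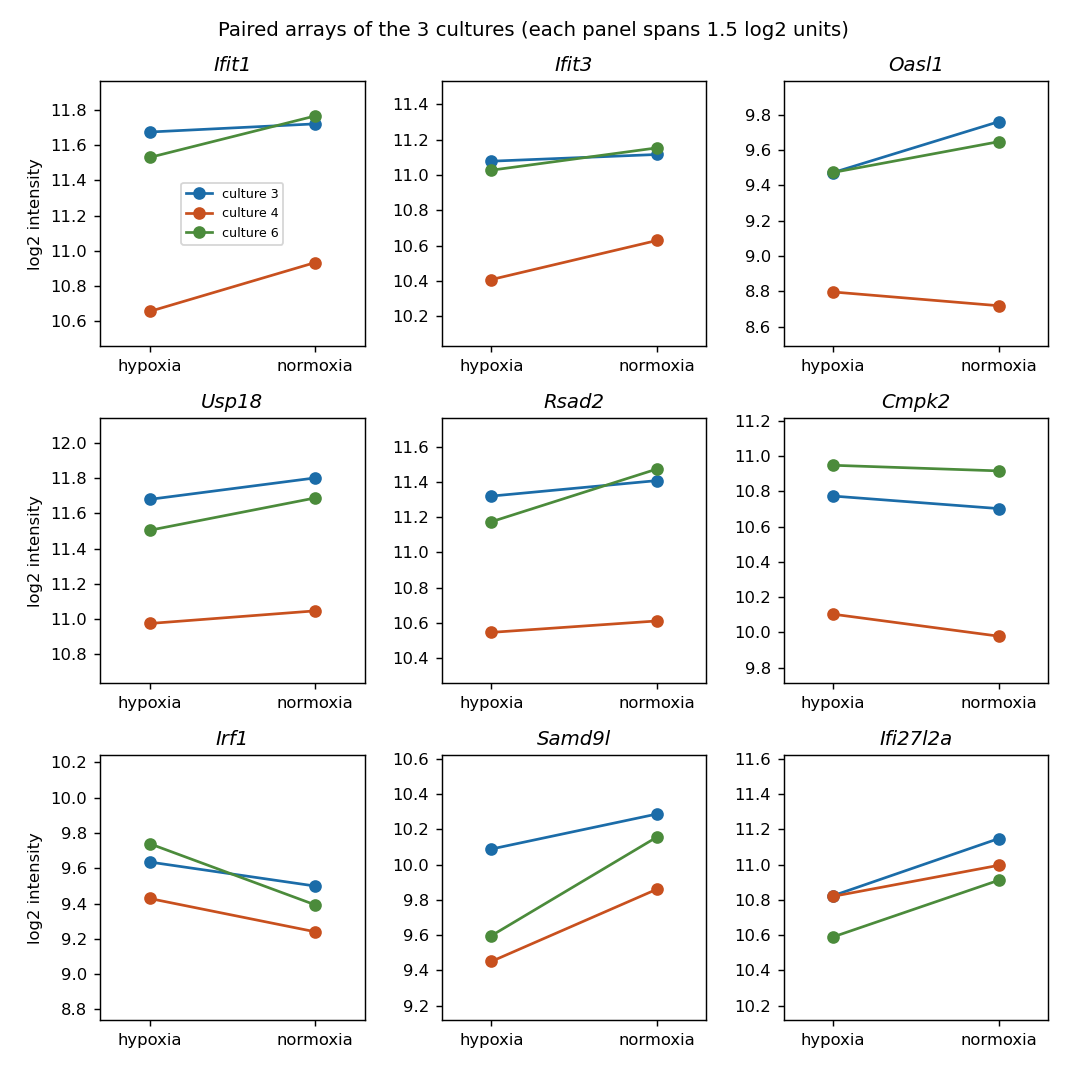
Log2 intensity of 9 members in hypoxia (left) and normoxia (right), with a line joining the 2 arrays of each culture, each panel spanning 1.5 log2 units. In the 6 genes that differed between cultures (Ifit1, Ifit3, Oasl1, Usp18, Rsad2, Cmpk2) culture 4 lies below the other cultures at both ends. Irf1, Samd9l and Ifi27l2a, in the bottom row, are the member furthest above 0 and the 2 furthest below it by mean change, 0.22, -0.39 and -0.27.

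The guanylate-binding proteins and the MX proteins are large GTPases that attack intracellular pathogens. Gbp2 had 11.32, 10.70 and 11.21 in hypoxia cultures 3, 4 and 6, against 11.36, 10.88 and 11.33 in normoxia cultures 3, 4 and 6. Gbp3 had 9.43, 8.72 and 9.38 in hypoxia, against 9.34, 8.89 and 9.34 in normoxia. In both genes culture 4 was below culture 3, by -0.55 for Gbp2 (adjusted p = 0.0353) and by -0.58 for Gbp3 (adjusted p = 0.0454). Gbp7 had 10.88, 10.25 and 10.52 in hypoxia and 11.00, 10.37 and 11.04 in normoxia. Mx1 had 10.72, 9.93 and 10.45 in hypoxia and 10.53, 10.23 and 10.58 in normoxia, and Mx2 had 10.25, 9.63 and 10.04 in hypoxia and 10.11, 9.79 and 10.14 in normoxia. Mx1 and Mx2 were lowest in culture 4 under both conditions but did not pass the pairwise test.

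All 5 sensors of nucleic acid were lowest in culture 4 in each condition, and none passed the F test. Ifih1 (MDA5, for long double-stranded RNA) had 10.55, 9.90 and 10.33 in hypoxia cultures 3, 4 and 6, against 10.53, 10.16 and 10.40 in normoxia cultures 3, 4 and 6. Rigi (RIG-I, for 5′-triphosphate RNA) had 10.78, 10.30 and 10.60 in hypoxia, against 10.82, 10.44 and 10.74 in normoxia. Zbp1, a sensor of left-handed nucleic acid, had 11.40, 11.15 and 11.36 in hypoxia, against 11.46, 10.99 and 11.33 in normoxia. In these 3 sensors the hypoxia and normoxia values overlapped. Dhx58 (LGP2, a regulator of both RNA helicases) had 10.54, 10.46 and 10.64 in hypoxia and 10.49, 10.30 and 10.50 in normoxia. Eif2ak2 (PKR, which blocks translation on double-stranded RNA) had 10.75, 10.18 and 10.22 in hypoxia and 10.70, 10.40 and 10.56 in normoxia.

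The membrane restriction factors went a different way. Bst2, or tetherin, which holds budding virions at the cell surface, had 11.54, 11.65 and 11.58 in hypoxia cultures 3, 4 and 6, against 11.78, 11.59 and 11.30 in normoxia cultures 3, 4 and 6. Ifitm3, which blocks fusion of virus with endosomes, had 13.02, 13.22 and 13.05 in hypoxia, against 13.12, 13.03 and 13.24 in normoxia. Neither was lowest in culture 4 under both conditions, although the stretch of Bst2 printed above holds the response element as overlapping matches.

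**Figure D3:**
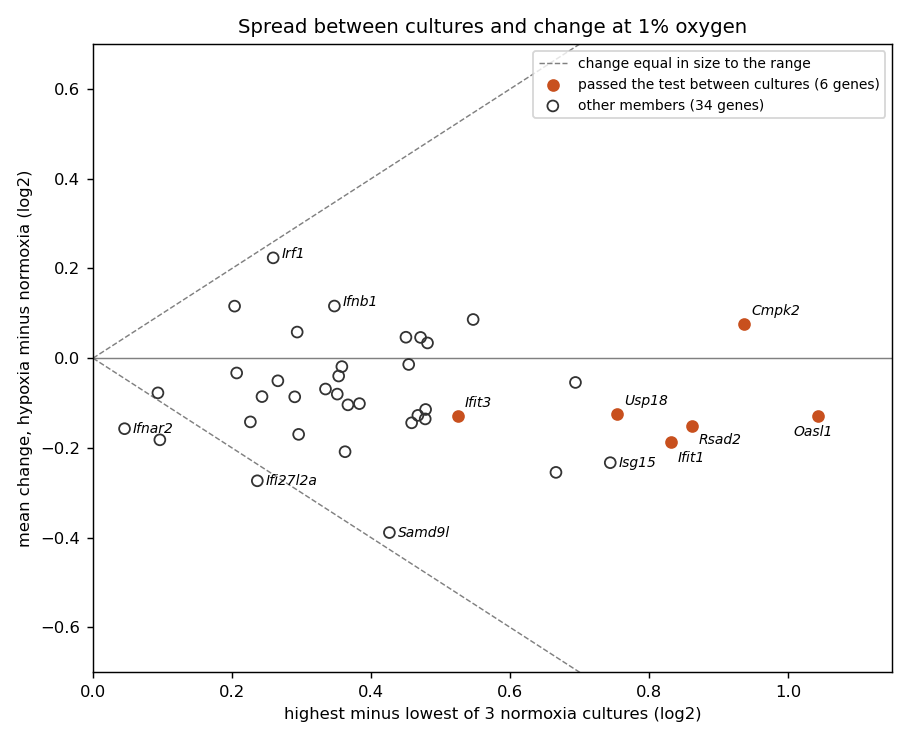
Mean log2 change at 1% oxygen (hypoxia minus normoxia, vertical axis) against the range of the 3 normoxia cultures (log2, horizontal axis) for each of the 40 members, with dashed lines where change and range are equal in size. The 6 filled points, which passed the test between cultures, have ranges of 0.52 to 1.04 and changes of -0.19 to 0.08.

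No member passed the test between hypoxia and normoxia. With limma, 0 of 40 were called at an adjusted p under 0.05, against 0.209% of all genes called higher and 0.0166% called lower (0.225% together), and the members' adjusted p ran from 0.427 to 0.982. At an unadjusted p under 0.05, 0 members were higher and 1 was lower, against 4.28% and 6.1% of all genes. The arrays pair by culture. With the culture as a block, which removes the spread between cultures from the error, 0 of 40 were still called, against 0.421% of all genes called higher and 0.116% called lower (0.537% together). The adjusted p then ran from 0.12 to 0.933, and at an unadjusted p under 0.05 there were 1 member higher and 6 lower, against 7.68% and 9.26% of all genes.

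The interval around each change shows what sizes these arrays leave possible. With the block, the 95% intervals of all 40 members lay between -0.59 and 0.39, and their median size was 0.18 to either side of the mean. Without it they lay between -0.88 and 0.72. Each of the 40 intervals, taken on its own, excluded a doubling and a halving in both fits. The intervals were not widened for their number, so 95% does not hold for all 40 together. Of 120 changes within a single culture, 2 were larger than 0.5 log2 units, and the range was -0.56 to 0.41.

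The small changes leaned downwards. The log2 change was below 0 in 31 of 40 members (77.5%), against 40.3% of all genes and 54.6% of the genes above the median mean level. The members' median change was -0.09, against 0.03 for all genes. In 19 members hypoxia was lower in each of the 3 cultures, against 17.5% of all genes and 28.0% of the brighter ones, and in 5 (Stat2, Irf1, Dhx58, Oas3 and Cmpk2) it was higher in each, against 24.8% of all genes. The hypoxia arrays all lay below the normoxia arrays in 3 members (Ifnar2, Irf9 and Ifi27l2a), against 7.58% of all genes, and above them in 0, against 8.24%. The size of the lean depended on the scaling of the arrays, since after quantile normalization of all features the members' median change was -0.0019. Without the hypoxia array of culture 4 it was 0.042. That fit has no block and keeps culture 4, low in most members, on the normoxia side only. Beside the lean, the fibroblast and pericyte markers had a median log2 change of 0.49. Of these markers, 9 of 10 were higher in hypoxia in each of the 3 cultures, although 0 were called without the block and 2 with it. Their part in the lean was not tested.

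It was also uneven over the cultures, with a median change of -0.02 in culture 3, -0.06 in culture 4 and -0.14 in culture 6. Taken over the 37 induced genes as a median deviation from each gene's normoxia mean, hypoxia cultures 3, 4 and 6 stood at 0.12, -0.32 and -0.01, and normoxia cultures 3, 4 and 6 at 0.15, -0.23 and 0.12. Culture 4 was the lowest of its condition both times. Whether the cultures responded differently to low oxygen could not be tested with 1 array per culture and condition.

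The members furthest from 0 in each direction were Samd9l and Ifi27l2a below it and Irf1 above it. Samd9l, whose product restricts poxviruses, had 10.09, 9.45 and 9.60 in hypoxia cultures 3, 4 and 6, against 10.29, 9.86 and 10.16 in normoxia cultures 3, 4 and 6. It was lower in hypoxia in every culture, by -0.20, -0.41 and -0.56, and the groups overlapped. The mean of -0.39 ± 0.17 (SE) did not pass the test (limma, adjusted p = 0.492), nor did it with the block (-0.39 ± 0.08, 95% interval -0.59 to -0.18, adjusted p = 0.12).

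Ifi27l2a, a small mitochondrial protein gene of the ISG12 family, had 10.82, 10.82 and 10.59 in hypoxia cultures 3, 4 and 6, against 11.15, 11.00 and 10.91 in normoxia cultures 3, 4 and 6. The groups did not overlap. The mean change was -0.27 ± 0.10 (SE, adjusted p = 0.427, or 0.146 with the block).

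Irf1 (chr11:53770014-53778374) codes for a transcription factor that drives antiviral and inflammatory genes and is itself induced by interferons. It was the one member whose blocked interval lay above 0. It had 9.64, 9.43 and 9.74 in hypoxia cultures 3, 4 and 6, against 9.50, 9.24 and 9.39 in normoxia cultures 3, 4 and 6, and the groups overlapped. The mean change of 0.22 ± 0.10 (SE) had an adjusted p of 0.509, or 0.209 with the block (95% interval 0.05 to 0.39). These values are from the brighter feature, where culture 4 minus culture 3 was -0.23. With the mean of its features, Irf1 had a change of 0.16 and a difference of culture 4 minus culture 3 of -0.08. Its promoter is shown because it holds the other interferon element, the gamma-activated sequence, searched as TTCNNNGAA (the same letters on both strands), at chr11:53769909-53769947 on the forward strand, with the match in capitals.
Irf1: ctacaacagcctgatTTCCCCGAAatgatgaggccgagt
That element was in 11 of 31 member genes (35.5%), against 9.55% of all genes with a window.

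**Figure D4:**
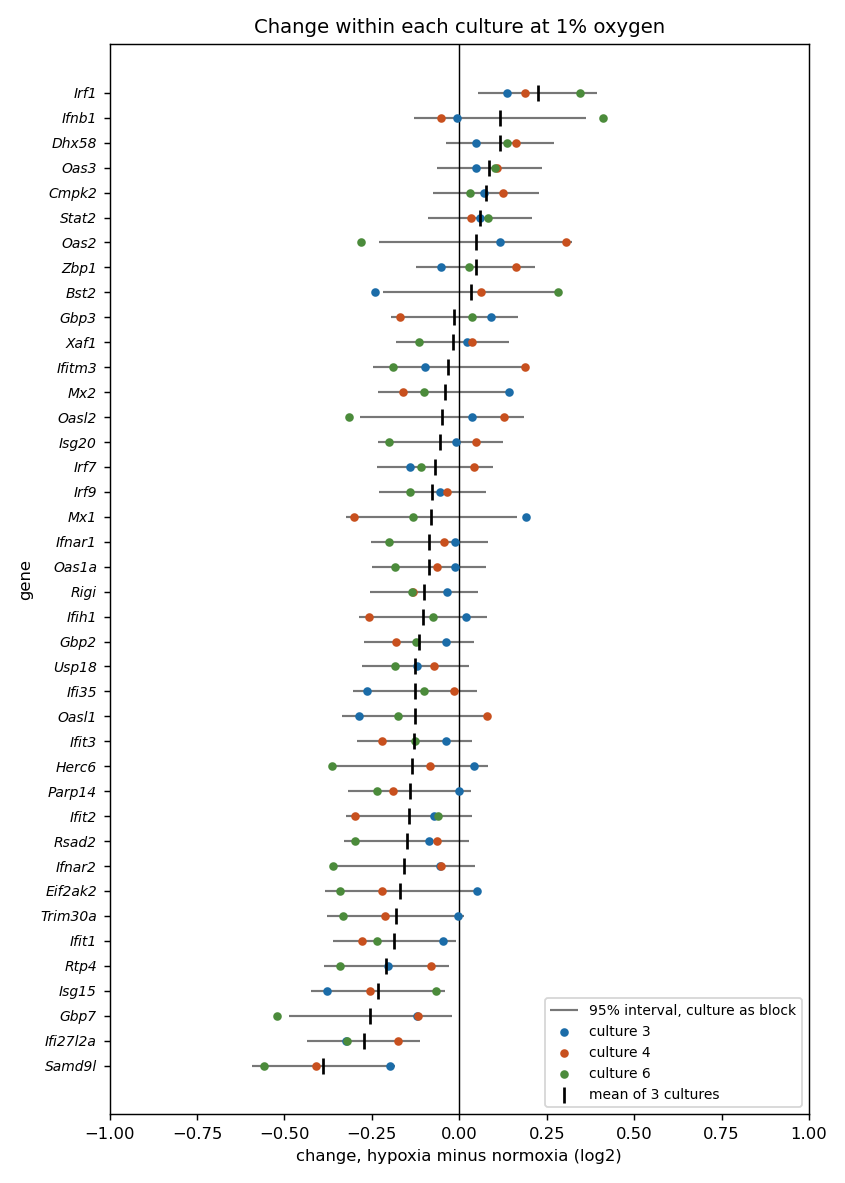
Change of each of the 40 members within each culture (points, hypoxia minus normoxia, log2), with the mean of the 3 cultures (tick) and its 95% interval from the fit with the culture as a block (line), ordered by the mean. Every interval lies within -0.59 and 0.39, and the means run from 0.22 (Irf1) to -0.39 (Samd9l).

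The other 5 members were Ifi35, Rtp4, Trim30a, Xaf1 and Parp14. Ifi35 had 9.15, 8.94 and 9.26 in hypoxia cultures 3, 4 and 6, against 9.42, 8.95 and 9.36 in normoxia cultures 3, 4 and 6. Rtp4, a transmembrane protein gene that in mice restrains the interferon response, had 9.31, 9.15 and 9.25 in hypoxia, against 9.51, 9.23 and 9.59 in normoxia. Both were lower in hypoxia in each culture, by at most 0.34 log2 units, without passing the test. Trim30a, a negative regulator of inflammatory signalling in mice, had 11.50, 11.21 and 11.19 in hypoxia and 11.50, 11.42 and 11.52 in normoxia. Parp14, an ADP-ribosyltransferase gene, had 11.51, 11.16 and 11.34 in hypoxia and 11.51, 11.35 and 11.57 in normoxia. Xaf1, whose product antagonises an apoptosis inhibitor, had the smallest mean change at low oxygen of the 5 and was lowest in culture 4 in both conditions, with 10.70, 10.35 and 10.41 in hypoxia and 10.67, 10.32 and 10.52 in normoxia.

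Interferon-stimulated genes outside the 40 followed the same split. Of 77 further genes listed 64 were measured, 0 changed at low oxygen (limma, and 1 before adjustment of p), against 0.225% of all genes, and 9 differed between cultures, against 1.13% of all genes (Iigp1, Cxcl9, Cxcl10, Ms4a4c, Ifit1bl1, Ifit3b, Tnfsf10, Gbp4 and Igtp). With the culture as a block 0 of 64 were called at low oxygen. At an unadjusted p under 0.05, that fit had 1 higher and 15 lower, against 7.68% and 9.26% of all genes. In 48 of 64 (75%) culture 4 was lowest in both conditions. The same held in 30 of 40 members (75%) and in 12.2% of all genes. Iigp1, an immunity-related GTPase gene, had 8.4, 6.4 and 8.0 in hypoxia cultures 3, 4 and 6, against 8.5, 6.8 and 8.2 in normoxia cultures 3, 4 and 6. Cxcl10, a chemokine for T cells, had 6.74, 5.44 and 6.74 in hypoxia, against 6.95, 5.58 and 7.06 in normoxia. Its culture 4 values lay below the array medians of 5.84 to 5.92. For Iigp1 the level in culture 3 was 3.67-fold that in culture 4, more than for any of the 40 members. Ifit3b and Ifit1bl1 are close copies of IFIT genes, so signal shared between their probes and those of Ifit3 and Ifit1 cannot be told apart.

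The upstream machinery was spread less between cultures. Of 57 genes listed for interferons, receptors, kinases, adaptors and regulators, 51 were measured, with 0 changed at low oxygen (limma, and 4 before adjustment of p, 2 in each direction) and 0 past the F test between cultures. With 0.225% and 1.13% of all genes called, counts of 0 are near the background, and at an unadjusted p under 0.05 the F test was passed by 9 of 51, against 14.5% of all genes. Their median normoxia range was 0.17, close to the 0.16 of all genes, and 11 of them (21.6%) were lowest in culture 4 in both conditions, against 12.2% of all genes. Jak2, a kinase of the interferon-γ receptor, and Tlr3, the endosomal sensor of double-stranded RNA, were lower in culture 4 than in culture 3. They were 2 of 51 in this pairwise test, against 1.07% of all genes, and neither passed the F test. The 17 interferon genes measured, mostly of the interferon-α cluster, had a median range of 0.19 in normoxia, and 1 of 17 was lowest in culture 4 in both conditions. Signal over background was not assessed for them, so they cannot show whether interferon expression follows the cultures.

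**Figure D5:**
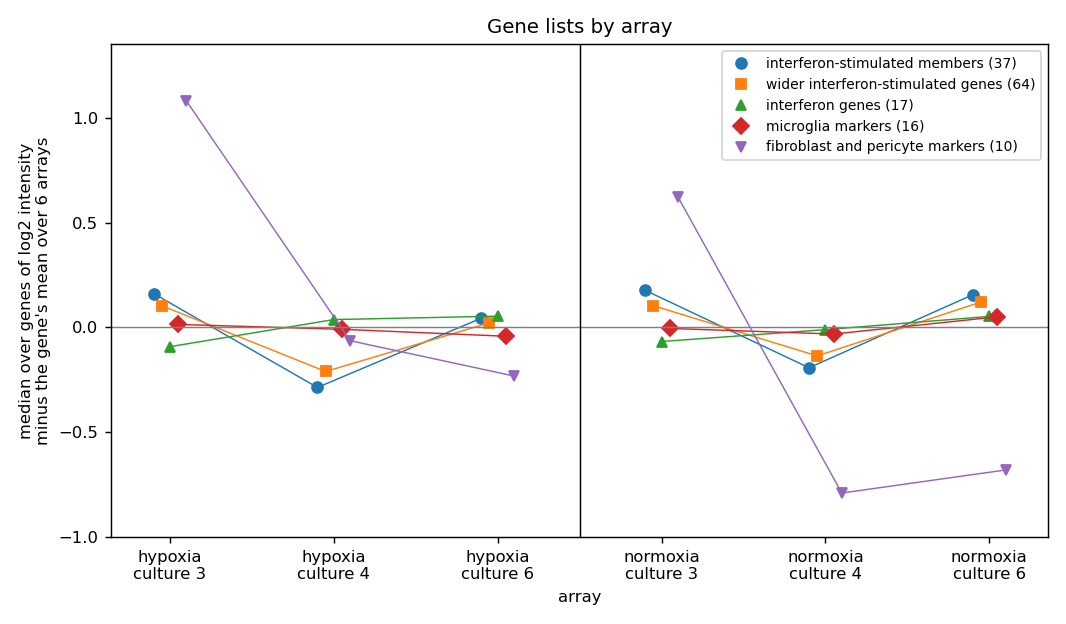
Median over genes of the log2 intensity minus each gene's mean over 6 arrays, for 5 gene lists (number of genes in brackets) on the 3 hypoxia and 3 normoxia arrays. Both lists of interferon-stimulated genes dip in culture 4 in each condition, microglia markers and interferon genes stay near 0, and fibroblast and pericyte markers are highest in culture 3.

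Other cell types were measured beside the interferon genes. The microglia markers had a log2 summed intensity of 15.65 to 15.78 on the hypoxia arrays and 15.73 to 15.80 on the normoxia arrays. All 6 markers of plasmacytoid dendritic cells, the main interferon producers in blood, were measured, none was called between conditions or cultures, and their log2 summed intensity was 8.7 to 9.0 in hypoxia and 8.8 to 8.9 in normoxia. RMA values have no true zero, so none of these markers can be said to be absent. The fibroblast and pericyte markers, by their summed intensity, were highest in culture 3 and lowest in culture 6 in both conditions. Endothelial markers were lowest in culture 4, with 10.45, 10.17 and 10.27 in hypoxia cultures 3, 4 and 6. They had 10.27, 9.86 and 10.06 in normoxia cultures 3, 4 and 6. In both conditions neuron markers were also lowest in culture 4, and markers of other leukocytes were highest there. Astrocyte markers were lowest in culture 6 and oligodendrocyte lineage markers in culture 3, in both conditions. The part of any of these cell types in the difference between cultures was not tested.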

How the data were processed

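RNA of 6 microglial samples (3 cultures, each at 1% and 21% oxygen for 6 h) was measured on one-colour Affymetrix arrays. The authors deposited log2 intensities, 1 value per feature and array. Their processing notes at GEO list Affymetrix Expression Console, the RMA method, limma and the mm10 build, without versions or roles. Array medians were 5.84 to 5.92, arrays of one group correlated at 0.987 to 0.993, and 0 pairs were identical. Signal over background was not assessed, and precision is limited by how few arrays there are.

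Of 72688 features, 30638 had 1 gene symbol in the platform annotation, 2176 had several and 39874 had none or were not listed. Features with 1 symbol gave 30176 genes. The brightest feature was kept for the 354 genes with more than 1, which included 1 member (Irf1). Gene positions and promoter windows came from RefSeq (GRCm38.p6).

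Hypoxia minus normoxia was fitted with lmFit and eBayes in limma 3.58.1 (R 4.3.3) without a block, and with the culture as a block. Cultures were compared by a moderated F test in a model with condition and culture. All adjusted p-values are from limma, Benjamini-Hochberg over all genes, two-sided, at 0.05. The labels pair the arrays by culture, and after the group mean was taken off, the 2 arrays of a culture correlated at 0.57, 0.40 and 0.22, while arrays of different cultures did so at -0.50 to 0.14. Percentages of variance are sums of squares of the blocked model. The code was tested on simulated data. Alternatives were median centring, quantile normalization, cyclic loess, leaving out dim genes, the mean of a gene's features, array weights, a trended prior variance and leaving out arrays.

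All 40 members are named. Genes of other lists are given by counts, and those past the test or with the largest spread by name. The members and lists were chosen with earlier results of these data known.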

Additional observations from a re-analysis of the deposited data

How the results depend on the processing

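For hypoxia against normoxia, 0 of 40 members were called under every alternative run, the culture as a replicate block included (0 members, 162 genes in all), and the lowest adjusted p of any member in any of them was 0.106 (limma). The members' median log2 change, -0.09, was -0.0019 after quantile normalization and -0.015 after cyclic loess. It ran from -0.20 without the normoxia array of culture 4 to 0.042 without the hypoxia array of culture 4. These fits have no block and leave culture 4 on 1 side of the comparison only. The sign of the change at low oxygen turned in 25 of 40 members under at least 1 alternative, such unpaired fits included.

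The 6 members that differed between cultures became 5 to 9 under other scalings, filters and variance priors. Leaving out single arrays gave 0 (either array of culture 3) to 12 (either array of culture 6). Without both culture 4 arrays, chosen after seeing the data, 0 members differed. The median spread in normoxia, 0.38, was 0.082 without the normoxia array of culture 4 or without both arrays of that culture, and 0.082 to 0.38 when single arrays were left out. A range over fewer normoxia arrays can only be equal or smaller, and hypoxia arrays do not enter it. The same drop over all genes was not computed. The difference of culture 4 minus culture 3 turned its sign in 9 of 479 recomputed values. For Oas2 it was -0.17, and ran from -0.36 without the hypoxia array of culture 4 to 0.029 without the normoxia array of culture 4.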
